A study of Mus musculus with 12 samples.

Results

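The Dlk1-Dio3 imprinted locus on mouse chromosome 12 was described across embryonic stem (ES) cells of 2 genetic backgrounds grown with or without a MEK inhibitor. The genes were chosen by name: the paternally expressed coding genes Dlk1, Rtl1 and Dio3, and the maternally expressed non-coding genes Meg3, Rian and Mirg. Of these 6 genes, 5 have a row among the 26742 genes of the deposited count table, and Rian was not analysed here. All 5 passed the filter on low counts, which kept 16627 genes.

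The cells were male mouse ES cells of the 129 background or of the B6J background, all in serum-containing medium with LIF, the cytokine that sustains ES cell self-renewal. They were given the solvent DMSO or 1 µM of PD 0325901, an inhibitor of the kinase MEK, every day from day 0, and RNA was taken after 5 days. Background and treatment give 4 groups of 3 libraries, 12 libraries in all. No clone, line name or donor is given in the labels, so the effects of background and of the particular line cannot be told apart. Whether the 3 libraries of a group are separate cultures is not said, and the p-values below then measure only the spread between libraries, part of which may be technical.

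The locus is a cluster of imprinted genes, in which each gene is transcribed mainly from the chromosome of 1 parent. On the maternal chromosome an unmethylated control region between Dlk1 and Meg3 is tied to transcription of Meg3, Rian and Mirg, long RNAs that host many microRNAs and small nucleolar RNAs, while on the paternal chromosome that region is methylated and Dlk1, Rtl1 and Dio3 are expressed. In mouse pluripotent cells the maternal RNAs are known to be silenced in some lines, with gain of methylation at the control region. The counts here are not split by allele, so "maternal" and "paternal" name the parental copy each gene is known to be expressed from, and not a measured origin of the reads.

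In GENCODE M21 (build GRCm38, 1-based) the interval from Dlk1 to Dio3 spans 828.3 kb. Dlk1 (ENSMUSG00000040856) lies at chr12:109452823-109463336 on the plus strand, and Meg3 (ENSMUSG00000021268) follows at chr12:109541001-109571726, also on the plus strand. Rtl1 (ENSMUSG00000085925) is on the minus strand at chr12:109589193-109600330. Mirg (ENSMUSG00000097391) at chr12:109729764-109749460 and Dio3 (ENSMUSG00000075707) at chr12:110279068-110281097 are on the plus strand. The interval holds 118 annotated genes, of which 15 are in the table. Its 67 microRNA genes and 23 small nucleolar RNA genes have no row there, and mature microRNAs were not measured by these libraries, which were made from polyadenylated RNA.

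The strand of the reads matters most for Rtl1, because the maternal chromosome makes a transcript antisense to it, which carries microRNA hairpins. Of the genes of the table, 47 are wholly covered by exons of a gene on the other strand, and 0 of them have a count in any library, against 81.6% of the other genes with a count. That is the pattern given by counting without regard to strand where reads that fit 2 genes are set aside, so reads of Rtl1 and of its antisense partner cannot be told apart. For Meg3, 1228 of its 18089 exonic bases overlap the antisense gene Gm26906, which has 0 counts. No exon of the table on the opposite strand covers Rtl1, Mirg, Dlk1 or Dio3.

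RefSeq (GRCm38.p6) places 114 mature microRNAs in the interval, with 104 distinct seeds (bases 2 to 8), of which 10 seeds are shared by 20 microRNAs. There are 26 within Mirg, 6 within Rian, 3 within Meg3 and 11 opposite Rtl1. The 11 opposite Rtl1 come from 6 hairpin genes and are complementary to Rtl1 RNA over their whole length. Because their host strand runs against Rtl1, 1 arm of each hairpin is shown, 5′ to 3′ with the seed in capitals.
mmu-miR-431-3p: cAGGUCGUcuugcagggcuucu
mmu-miR-433-3p: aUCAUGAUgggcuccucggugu
mmu-miR-127-3p: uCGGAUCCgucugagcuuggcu
mmu-miR-434-3p: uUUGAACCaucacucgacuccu
mmu-miR-432: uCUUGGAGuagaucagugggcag
mmu-miR-136-3p: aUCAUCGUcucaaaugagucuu
Their 6 seeds differ from each other, and each was found in 1 microRNA of the interval. In contrast, a pair from hairpins within Mirg, shown because they share a seed, differ from each other after it.
mmu-miR-453: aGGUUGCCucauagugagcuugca
mmu-miR-496a-5p: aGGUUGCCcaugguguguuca

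Library totals ran from 62634533 to 96341637 counts. Levels are given in CPM, that is read counts brought to 1 library size with TMM factors, and differences as log2 ratios of fitted group means. By chi-square over genes, 1 library stood most apart within each group (replicate 1 of 129 with DMSO, of 129 with the inhibitor and of B6J with DMSO, and replicate 3 of B6J with the inhibitor). In B6J with the inhibitor the choice was less clear. There the chi-square per degree of freedom was 128.4 between replicates 1 and 3, 44.81 between 2 and 3, and 27.98 between 1 and 2. All 10 ES cell markers were detected in every library. Their summed level was 3180 to 4420 CPM in 129 with DMSO and 5290 to 5440 CPM with the inhibitor, and 4060 to 5000 and 5230 to 5530 CPM in B6J, with 7 of 10 higher and 0 lower with the inhibitor in 129, and 6 higher and 1 lower in B6J. The 20 fibroblast (feeder cell) markers were also present in every library, none at 0. Their sum was 5400 to 11000 CPM in 129 with DMSO and 10800 to 15200 CPM with the inhibitor, and 7680 to 8440 and 11000 to 16600 CPM in B6J. Of these markers 13 of 20 were higher with the inhibitor in each background and 0 lower, and 0 of 20 were called between backgrounds in either medium by edgeR (at an unadjusted p under 0.05, 0 in DMSO and 1, Fn1, in the inhibitor). Uncalled differences leaned to B6J, with 18 of 20 above 0 in DMSO (median 0.25) and 16 of 20 in the inhibitor (median 0.07). In 129 with DMSO the sum was 11000 CPM in replicate 1 and 5400 and 5610 CPM in replicates 2 and 3, below all B6J libraries with DMSO. Embryonic fibroblasts are known to express genes of this locus, so the marker levels are set beside the results they move with. Markers of other cell types also moved. Of 11 tested mesoderm and streak markers 7 were lower and 1 higher in B6J with DMSO, with sums over the list of 36.4 to 66.1 CPM against 171 to 255 CPM in 129. With the inhibitor 8 of them were lower and 2 higher in 129 (sums of 11.1 to 20 CPM), and 6 lower and 1 higher in B6J (10.8 to 12.7 CPM). Of 9 tested trophoblast markers 7 were lower with the inhibitor in each background, from 310 to 785 CPM in sum to 107 to 117 CPM in 129 and from 421 to 545 to 117 to 120 CPM in B6J. Of 12 primitive endoderm markers 6 were lower and 1 higher in B6J with DMSO, and 6 were lower and 0 higher with the inhibitor in 129. Their sum in 129 with DMSO was 8490 CPM in replicate 1 against 740 and 739 CPM in replicates 2 and 3. In B6J with DMSO it was 946 to 970 CPM, above those 2 replicates. The part of these lists in the levels of the locus was not tested. In bulk RNA, fewer cells of a type and less RNA per cell cannot be told apart.

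Compared per kilobase of exon, Meg3 was the most abundant of the 5 transcripts in DMSO and Dio3 in the inhibitor. In 129 with DMSO the mean levels were 11.9 CPM per kb for Meg3, 3.54 for Mirg, 1.73 for Dio3, 0.761 for Dlk1 and 0.346 for Rtl1. No neighbours in that order overlapped between libraries. With the inhibitor Dio3 led at 13.4 CPM per kb, followed by Meg3 at 8.17, Mirg at 2.51, Dlk1 at 0.395 and Rtl1 at 0.334, again without overlap. In B6J with DMSO, Meg3 stood at 2.35 CPM per kb, Dlk1 at 0.775 and Dio3 at 0.766, which overlapped each other, Mirg at 0.523 and Rtl1 at 0.0465. In B6J with the inhibitor the order was Dio3 at 8.74, Meg3 at 4.49, Mirg at 0.734, Dlk1 at 0.282 and Rtl1 at 0.0742.

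**Figure D1:**
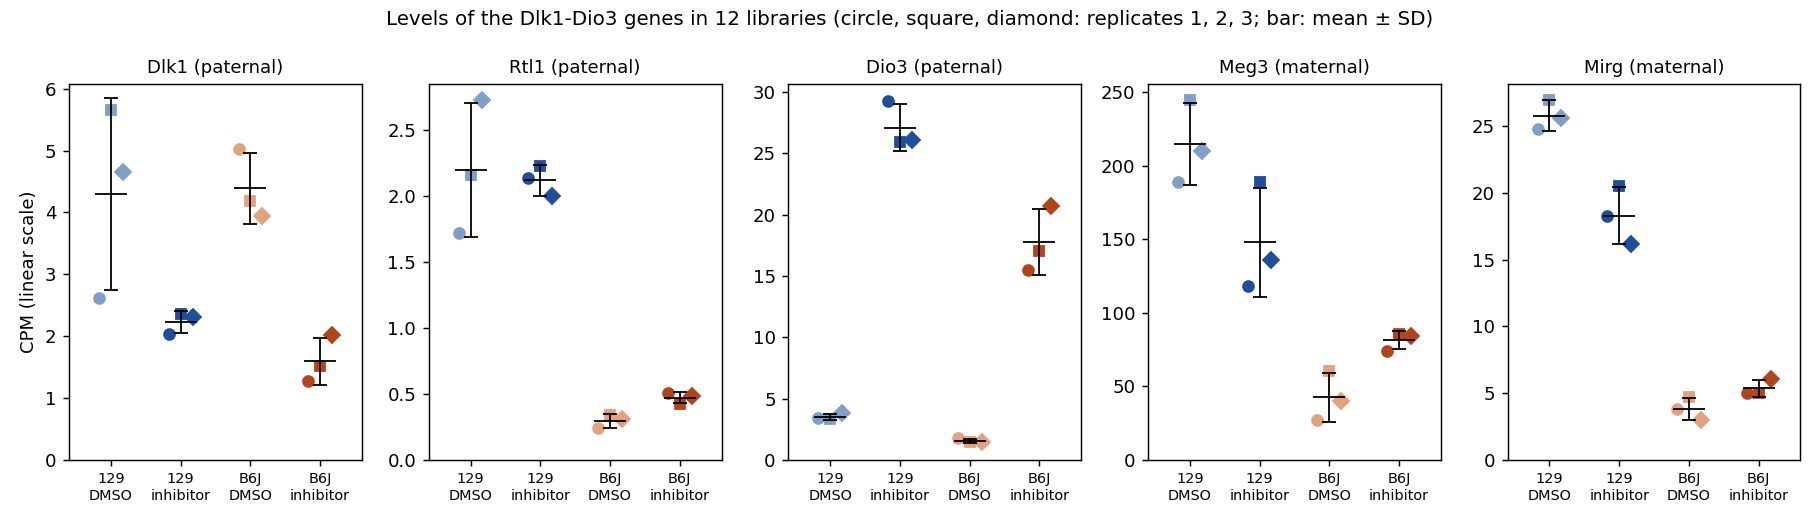
Level of each gene (CPM, linear axes that differ between panels) in the 12 libraries, with replicates 1, 2 and 3 of a group as circle, square and diamond and bars for mean ± SD. Meg3, Mirg and Rtl1 are lower in all 6 B6J libraries than in all 6 129 libraries, and Dio3 is higher in every library with the inhibitor than in any library with DMSO.

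The first question was how the locus differs between backgrounds. The RNAs of the Meg3-Rtl1-Mirg stretch were several-fold lower in B6J cells with DMSO, Dio3 was lower by less, and Dlk1 did not pass the test. In the inhibitor Rtl1 was 4.489-fold, Mirg 3.421-fold and Meg3 1.817-fold lower. In DMSO 4 of the 5 genes were lower in B6J and 0 higher, against 10.5% lower of all tested genes (edgeR, adjusted p under 0.05). Of all tested genes 20.9% were called in DMSO in either direction and 10.4% were higher. The same 4 genes were lower in the inhibitor and 0 higher, against 9.47% lower, 8.9% higher and 18.4% called of all tested genes.

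Meg3, the long non-coding RNA that begins the maternal transcription unit, was at 189, 245 and 210 CPM in DMSO replicates 1, 2 and 3 of 129, and the B6J libraries held 27.1, 60.2 and 40.1 CPM. The highest B6J library was far below the lowest 129 library. The log2 difference, B6J minus 129, was -2.34 (SE 0.26, edgeR adjusted p = 8e-05), a 5.052-fold lower level. In the inhibitor Meg3 was at 118, 189 and 136 CPM in 129 and at 74.3, 85.6 and 84 CPM in B6J. The groups still did not overlap, at a smaller difference of -0.86 (SE 0.25, adjusted p = 0.0311). Among the inhibitor libraries, dropping replicate 2 or 3 of 129 ended that call (adjusted p = 0.139 and 0.0681), as did dropping replicate 1, 2 or 3 of B6J (0.119, 0.0853 and 0.0767). Dropping replicate 1 of 129 did not.

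Mirg, the most distal of the maternal RNAs and host of the microRNA pair printed above, was at 24.8, 27 and 25.6 CPM in 129 with DMSO and at 3.8, 4.67 and 2.97 CPM in B6J. Its difference was -2.76 (SE 0.17, adjusted p = 6.96e-07), or 6.76-fold. In the inhibitor the 129 libraries held 18.3, 20.5 and 16.2 CPM and the B6J libraries 5.01, 4.97 and 6.07 CPM, a difference of -1.77 (SE 0.16, adjusted p = 1.78e-05). Neither medium brought a B6J library near the 129 range.

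Rtl1, a retrotransposon-derived gene needed in the fetal vessels of the placenta, is classed as paternal, yet its row had a low level in B6J like those of the maternal RNAs. It was at 1.72, 2.16 and 2.73 CPM in 129 with DMSO against 0.239, 0.337 and 0.31 CPM in B6J, where its libraries held 19, 28 and 23 counts. The difference was -2.89 (SE 0.23, adjusted p = 6.36e-06), or 7.406-fold. In the inhibitor it was at 2.14, 2.23 and 2 CPM in 129 and at 0.506, 0.426 and 0.483 CPM in B6J (-2.17, SE 0.22, adjusted p = 3.95e-05). The ratio of Mirg to Rtl1 counts within a library lay between 8.11 and 15.9 in all 12 libraries. Whether these reads come from Rtl1 itself or from the maternal antisense transcript that holds the microRNAs printed above cannot be told apart.

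Dio3, the deiodinase that inactivates thyroid hormone, lies at the far end of the locus and was lower in B6J by less. In DMSO it was at 3.4, 3.33 and 3.78 CPM in 129 and at 1.74, 1.44 and 1.48 CPM in B6J (-1.17, SE 0.13, adjusted p = 0.000102). In the inhibitor it was at 29.3, 25.9 and 26.1 CPM in 129 and at 15.5, 17 and 20.7 CPM in B6J (-0.61, SE 0.12, adjusted p = 0.00476). In each medium every B6J library was below every 129 library.

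Dlk1, a transmembrane protein of the Notch ligand family that opens the locus, overlapped between backgrounds in DMSO, at 2.61, 5.66 and 4.65 CPM in 129 and 5.03, 4.19 and 3.94 CPM in B6J. Its difference was 0.03 (SE 0.26, adjusted p = 0.957). In the inhibitor it was at 2.03, 2.35 and 2.31 CPM in 129 and 1.27, 1.51 and 2.01 CPM in B6J, which did not overlap. That difference of -0.48 (SE 0.27) did not pass the test (adjusted p = 0.257). Without the 4 libraries that stood apart it passed, at -0.76 (adjusted p = 0.00538).

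Of 10 further rows inside the interval 2 passed the filter, and both are long non-coding RNAs. Gm34081, between Dlk1 and Meg3 at chr12:109493529-109516740 on the minus strand, had 20, 34 and 20 counts in 129 with DMSO and 4, 3 and 0 in B6J. In the inhibitor it had 22, 22 and 27 counts in 129 and 2, 2 and 6 in B6J. It passed the filter through the 129 libraries alone, which fixes the direction, so its difference is a description and supports nothing. Gm26945, at chr12:109640341-109642351 on the plus strand within an intron of Rian, had 60, 109 and 87 counts in 129 with DMSO and 2, 29 and 16 in B6J (-2.64, SE 0.66, adjusted p = 0.0156). In the inhibitor its difference of -1.41 did not pass (adjusted p = 0.178), at 23, 50 and 53 counts against 31, 9 and 14. Of the 8 genes of the table that lie within 500 kb of the interval, all 8 were tested and 0 were called in either medium. Of all tested genes 20.9% were called in DMSO and 18.4% in the inhibitor, so 0 of 8 does not show where the difference ends. The differences of the 8 genes ran from -0.97 to 0.15 in DMSO and from -0.36 to 0.27 in the inhibitor. At an unadjusted p under 0.05 there were 0 in DMSO and 1, Dync1h1, in the inhibitor, and DESeq2 and limma-voom called 0 in either medium.

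**Figure D2:**
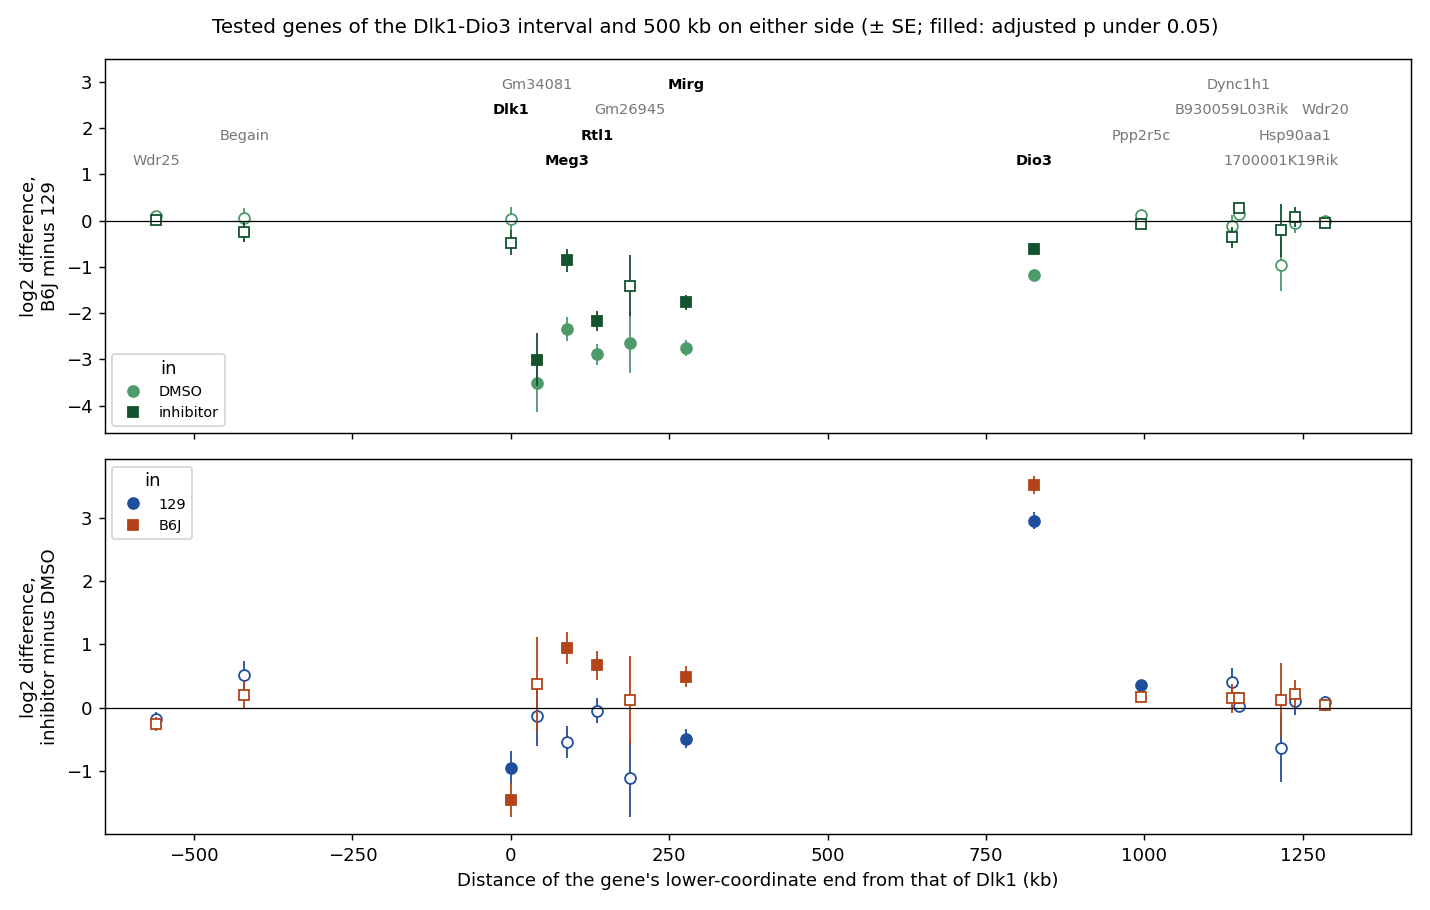
Log2 differences (± SE) of every tested gene in the interval and within 500 kb of it, against the distance of the gene's lower-coordinate end from that of Dlk1 in kb: B6J minus 129 above, inhibitor minus DMSO below, filled where the adjusted p was under 0.05. The filled points of the upper panel lie between Dlk1 and Dio3, among them Gm34081, which passed the filter through the 129 libraries alone, and in the lower panel Dio3 stands far above all other genes.

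The sequence before the Meg3 start is shown because the maternal RNAs downstream of it differed together between backgrounds. RefSeq's 250 bases at chr12:109540746-109540995 (GRCm38.p6, plus strand) hold a cyclic AMP response element, TGACGTCA, and a TATA box, TATAAA, both in capitals.
Meg3 upstream: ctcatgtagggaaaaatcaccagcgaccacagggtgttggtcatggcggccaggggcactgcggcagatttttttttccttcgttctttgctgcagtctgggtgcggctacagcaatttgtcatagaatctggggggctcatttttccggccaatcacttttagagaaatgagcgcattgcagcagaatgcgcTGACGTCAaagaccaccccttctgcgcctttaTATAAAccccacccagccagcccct
Searched on both strands in the 250 bases before the start of 32851 RefSeq promoters, TGACGTCA was found in 1.5% of promoters, TATAAA in 12.4% and the CCAAT box, CCAAT, in 33.8%. The Meg3 window holds 1 TGACGTCA, which begins at base -57, 1 CCAAT, which begins at base -100, and 2 TATAAA matches that overlap on opposite strands. It has 10 CpG dinucleotides, against a median of 6 over all promoters. A match is a description of these letters and not a site of binding, and it is the reference sequence, which may differ in either cell line.

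The second question was how each background responded to the inhibitor. The largest change at the locus was a rise of Dio3 in both backgrounds, with a fall of Dlk1, while Meg3, Mirg and Rtl1 rose in B6J and Mirg fell in 129. In 129, 1 of the 5 genes was higher and 2 were lower, against 17.4% higher and 18.2% lower of all tested genes. In B6J 4 were higher and 1 lower, against 14.6% and 16.5%. Of all tested genes 35.7% were called in 129 and 31.1% in B6J, so a call alone says little about the locus, and the sizes are given gene by gene. Of the 8 tested genes within 500 kb of the interval, 1 was called in 129, Ppp2r5c, which was higher (0.35, SE 0.07, edgeR adjusted p = 0.00173). In B6J 0 of the 8 were called.

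Dio3 rose in 129 from 3.4, 3.33 and 3.78 CPM to 29.3, 25.9 and 26.1 CPM. The log2 fold change was 2.95 (SE 0.13, adjusted p = 1.88e-07), or 7.737-fold. In B6J it rose from 1.74, 1.44 and 1.48 CPM to 15.5, 17 and 20.7 CPM (3.51, SE 0.14, adjusted p = 1.24e-07), or 11.41-fold. Both responses were called under all 16 alternatives, between 2.81 and 3.01 in 129 and between 3.39 and 3.63 in B6J. With the fibroblast marker level (mean log2 CPM) as a covariate the changes were 2.81 and 3.40. This covariate was higher in every inhibitor library than in any DMSO library of its background. It was 6.78 to 7.38 against 5.55 to 6.58 in 129, and 6.78 to 7.39 against 6.08 to 6.39 in B6J. A response kept or lost under it, here or below, therefore cannot show the part of fibroblasts.

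Upstream of Dio3 the 88 bases that precede both the RefSeq and the GENCODE start, at chr12:110278980-110279067 on the plus strand, are shown as the stretch before the most responsive gene, with GC boxes (read here as CCGCCC, the other strand of GGGCGG) in capitals.
Dio3 upstream: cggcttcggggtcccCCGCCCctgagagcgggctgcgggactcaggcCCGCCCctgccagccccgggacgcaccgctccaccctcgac
RefSeq's full 250-base window for Dio3 holds 4 GC boxes, a motif found in 32.7% of promoters, and 21 CpG dinucleotides. It has no TGACGTCA.

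Dlk1 fell in 129 from 2.61, 5.66 and 4.65 CPM to 2.03, 2.35 and 2.31 CPM (-0.95, SE 0.26, adjusted p = 0.0162). The groups did not overlap, but replicate 1 of 129 with DMSO, the library of that group with the highest fibroblast marker sum, lay close to the inhibitor libraries. In B6J it fell from 5.03, 4.19 and 3.94 CPM to 1.27, 1.51 and 2.01 CPM (-1.46, SE 0.27, adjusted p = 0.00163). Dropping replicate 2 of the 129 DMSO libraries (adjusted p = 0.0739) or replicate 1 of the 129 inhibitor libraries (0.0574) ended the 129 call. With the fibroblast covariate the change was -0.33 in 129 (adjusted p = 0.567) and -0.98 in B6J (0.0487).

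Meg3 had no called response in 129, at 189, 245 and 210 CPM in DMSO and 118, 189 and 136 CPM in the inhibitor (-0.54, SE 0.25, adjusted p = 0.11). The groups met at 189 CPM, but within each replicate number the inhibitor library was the lower. With the replicate number as a block the fall was called (-0.56, adjusted p = 0.0301). Same-numbered 129 libraries deviated together, but replicates 2 and 3 did so nearly as much across numbers. Without the 4 libraries that stood apart the change was called, at -0.48 (adjusted p = 0.041). In B6J Meg3 rose from 27.1, 60.2 and 40.1 CPM to 74.3, 85.6 and 84 CPM (0.94, SE 0.25, adjusted p = 0.014), with no overlap. Dropping replicate 3 of the B6J DMSO libraries (adjusted p = 0.0531) or replicate 2 of the B6J inhibitor libraries (0.0515) ended the call, which was kept with the fibroblast covariate (1.04, adjusted p = 0.0435). The fibroblast marker sum of the B6J libraries rose over the same step, from at most 8440 to at least 11000 CPM. Its part in the Meg3 level was not tested, since the covariate moved with the inhibitor.

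Mirg moved in opposite directions by the same size. In 129 it fell from 24.8, 27 and 25.6 CPM to 18.3, 20.5 and 16.2 CPM (-0.49, SE 0.15, adjusted p = 0.0266), and in B6J it rose from 3.8, 4.67 and 2.97 CPM to 5.01, 4.97 and 6.07 CPM (0.49, SE 0.16, adjusted p = 0.0353). Neither step had overlapping libraries. The 129 call ended in 5 of 16 alternatives: on dropping DMSO replicate 2 or 3 (adjusted p = 0.0811 and 0.0595), on dropping inhibitor replicate 1 or 3 (0.0693 and 0.107), and with the fibroblast covariate (0.102). The B6J call ended in 9 of 16, among them on dropping DMSO replicate 1 or 3 (0.0822 and 0.128), on dropping inhibitor replicate 2 or 3 (0.055 and 0.123), and with the covariate (0.158).

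Rtl1 stood at 1.72, 2.16 and 2.73 CPM in 129 with DMSO and at 2.14, 2.23 and 2 CPM with the inhibitor, overlapping groups with a change of -0.05 (SE 0.20, adjusted p = 0.863). In B6J it rose from 0.239, 0.337 and 0.31 CPM to 0.506, 0.426 and 0.483 CPM (0.67, SE 0.23, adjusted p = 0.0454), resting on 19, 28 and 23 counts against 40, 35 and 46. This call was lost in 12 of 16 alternatives, with adjusted p between 0.0315 and 0.166 over all of them. It was lost without each of the 6 B6J libraries in turn (0.0583 to 0.138).

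The third question was whether the backgrounds responded differently. For Meg3 and Mirg the response was more positive in B6J, at an adjusted p just over the threshold. The difference of the responses, B6J minus 129, was 1.48 for Meg3 (SE 0.35, adjusted p = 0.0666) and 0.98 for Mirg (SE 0.22, adjusted p = 0.0541). It was 0.72 for Rtl1 (SE 0.31, adjusted p = 0.344), 0.56 for Dio3 (SE 0.18, adjusted p = 0.183) and -0.51 for Dlk1 (SE 0.37, adjusted p = 0.641). By edgeR 0 of the 5 were called at an adjusted p under 0.05, against 1.48% of all tested genes (0.71% higher, 0.77% lower), and 4 had an unadjusted p under 0.05 (Meg3, Mirg, Dio3 and Rtl1). DESeq2 called 2 and limma-voom 0. The 2 were Meg3 (DESeq2 adjusted p = 0.00292) and Mirg (0.00134). With edgeR both were called when DMSO replicate 1 of 129 (0.0431 and 0.0398) or DMSO replicate 2 of B6J (0.0218 and 0.0367) was dropped, and with the fibroblast covariate (0.0402 and 0.025). Without the 4 libraries that stood apart Meg3 (0.0149), Mirg (0.0353) and Dio3 (0.0298) were called.

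**Figure D3:**
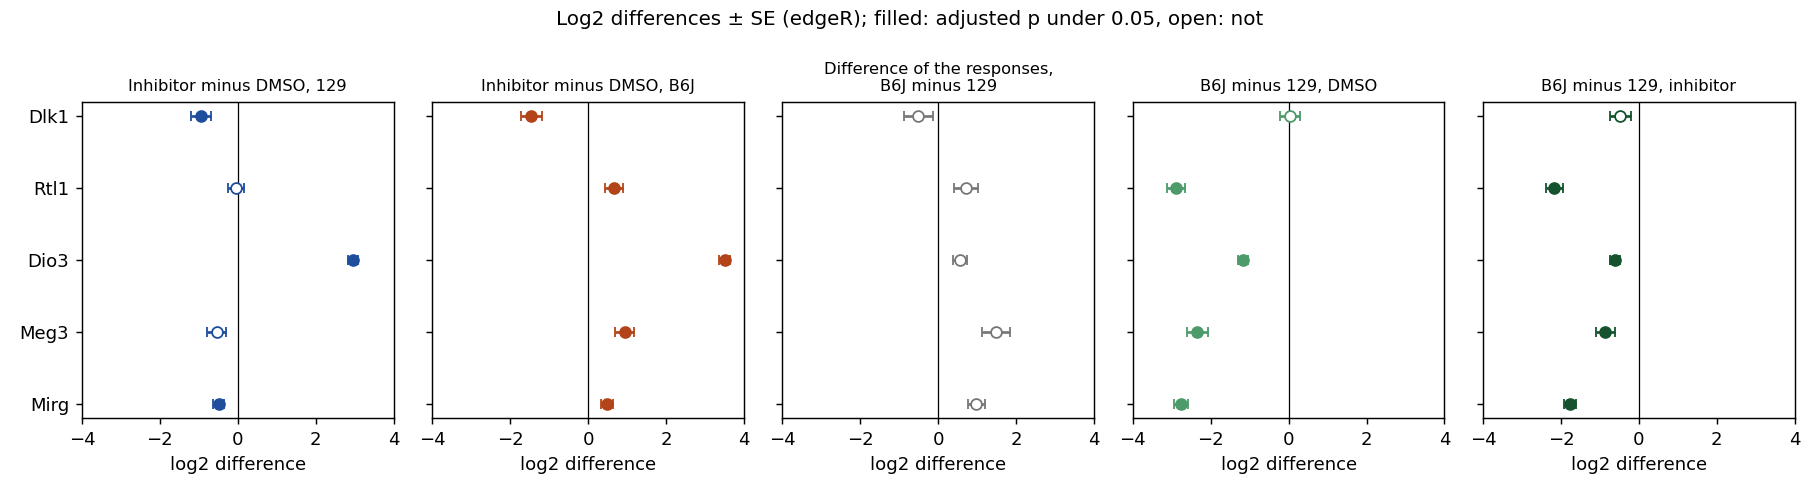
Log2 differences (± SE, edgeR) of the 5 genes in each of the 5 comparisons, filled where the adjusted p was under 0.05. Dio3 lies far to the right in both responses, the 4 genes other than Dlk1 lie to the left in both comparisons of backgrounds, and no point is filled for the difference of the responses.

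The balance of maternal to paternal transcripts within a library was taken as the log2 ratio of Meg3 plus Mirg counts to Dlk1 plus Rtl1 plus Dio3 counts, each sum plus 1. Such a ratio does not depend on scaling between libraries. Counts were not divided by exon length, so Meg3 (18.1 kb of exon) weighs more in it than Dio3 (2.03 kb). Per kb with the inhibitor, Dio3 stood above Meg3, at 13.4 against 8.17 CPM in 129 and 8.74 against 4.49 CPM in B6J. Rtl1 is counted as paternal, though its reads may come from the maternal antisense transcript. The ratio is a score over the chosen genes, given as a description with no test. In 129 with DMSO it was 4.79, 4.61 and 4.40 (mean 4.60 ± 0.20, SD, n = 3), or 21.1 to 27.7 maternal counts for each paternal count. With the inhibitor it was 2.02, 2.78 and 2.33 (2.38 ± 0.38), below all DMSO libraries. In B6J the DMSO libraries gave 2.14, 3.44 and 2.91 (2.83 ± 0.66). The B6J inhibitor libraries gave 2.19, 2.26 and 1.95 (2.14 ± 0.16), and the groups overlapped. The mean difference, inhibitor minus DMSO, was -2.22 in 129 and -0.69 in B6J.

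Dio3 and Dlk1, both counted as paternal in that balance, moved in opposite directions. The ratio of Dio3 to Dlk1 counts was 0.345 to 1.31 in the 6 libraries with DMSO and 10.3 to 14.5 in the 6 with the inhibitor, with no overlap. Taken as Meg3 to Dlk1 alone, the mean log2 ratio was higher with the inhibitor, by 0.31 in 129, where the groups overlapped, and by 2.48 in B6J. As plain ratios, Meg3 to Dlk1 was 5.38 to 14.4 in B6J with DMSO and 41.8 to 80.2 in the other 9 libraries. Within the maternal unit, Meg3 to Mirg was 6.44 to 9.23 in 129 and 7.12 to 17.2 in B6J, where replicate 1 with DMSO gave the lowest value.

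**Figure D4:**
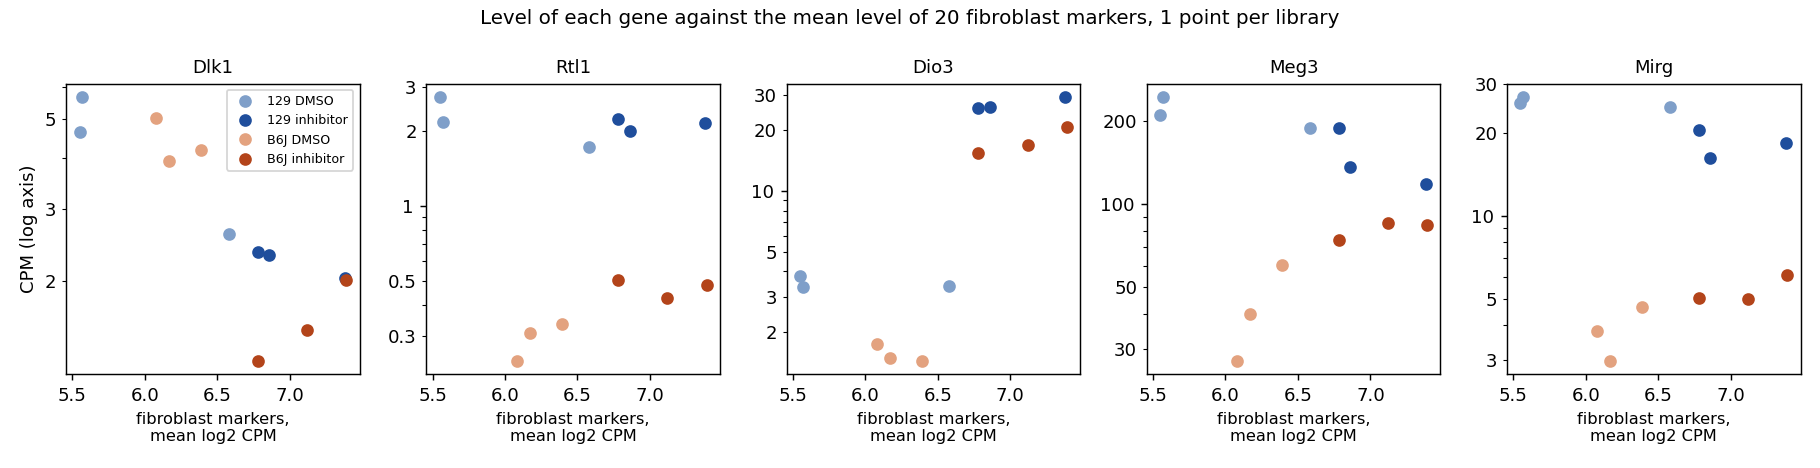
CPM of each gene (log axis) against the average over 20 fibroblast markers of log2 CPM, 1 point per library, coloured by group. Marker levels are higher with the inhibitor, replicate 1 of 129 with DMSO (6.58) lies apart from replicates 2 and 3 (5.57 and 5.55), and at like marker levels B6J points lie below 129 points for Rtl1, Meg3 and Mirg.

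No fibroblast marker was called between backgrounds by edgeR, though 18 of 20 differences in DMSO and 16 of 20 in the inhibitor were above 0 in B6J. With the inhibitor 13 of 20 rose. With the mean marker level as a covariate, 4 genes were lower in B6J in each medium, Meg3 by -2.29 in DMSO and -0.84 in the inhibitor, Mirg by -2.78 and -1.78, and Rtl1 by -2.78 and -2.14. That fit also holds the group means, so the covariate's slope comes only from the spread of libraries within groups. A difference kept under it therefore cannot show the part of fibroblasts, which was not tested. Replicate 1 of 129 with DMSO also held primitive endoderm markers, with a summed level of 8490 CPM for 12 genes against 740 and 739 CPM in replicates 2 and 3. Without the 4 libraries that stood apart the differences between backgrounds in DMSO were -2.18 for Meg3, -2.91 for Rtl1, -2.78 for Mirg and -1.28 for Dio3, all called.

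Regulators of the locus were followed as a list of 22 genes of imprint maintenance, DNA methylation and polycomb, all tested. In 129, 7 were higher and 2 lower with the inhibitor, in B6J 5 were higher and 5 lower (median log2 fold changes 0.09 and 0.05), against 35.7% and 31.1% of all tested genes called in either direction. Zfp57, the zinc finger factor that holds on to methylated imprint control DNA, went from 173 ± 19.6 to 344 ± 33.5 CPM (SD, n = 3) in 129 and from 184 ± 11.4 to 373 ± 9.49 CPM in B6J (0.99 and 1.02, adjusted p = 1.65e-05 and 1.44e-05). Its partner Trim28 rose by 0.59 in each. Aff3, a super elongation complex protein known to bind at the control region of this locus, fell from 12.9 ± 1.66 to 4.44 ± 0.548 CPM in 129 and from 25 ± 0.341 to 7.43 ± 1.27 CPM in B6J (-1.53 and -1.75). The de novo methyltransferase Dnmt3b changed by -1.38 and -1.35, and Dnmt3a by -0.42 (adjusted p = 0.0588) and -1.26. Uhrf1, which guides methylation to newly copied DNA, rose by 0.55 and 0.61, and the polycomb subunit Eed by 0.36 and 0.31.

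Dppa3 and Setdb1 were the 2 regulators with a called difference of responses, against 1.48% of all tested genes. Dppa3, also called Stella, which is known to guard imprints in the early embryo and to restrain loss of maternal Meg3 expression in reprogrammed cells, rose in 129 from 10.6 ± 1.69 to 16.7 ± 2.58 CPM and fell in B6J from 57.2 ± 5.46 to 42.1 ± 2.63 CPM (difference of responses -1.10, adjusted p = 0.0187). It was far higher in B6J, by 2.43 in DMSO (adjusted p = 5.39e-07) and by 1.33 in the inhibitor (4.69e-05). A link between Dppa3 and the level of the maternal RNAs in these cells was not tested. The histone methyltransferase Setdb1 rose by 0.57 in 129 and fell by 0.23 in B6J (difference of responses -0.80, adjusted p = 0.00264). In DMSO 6 regulators were higher in B6J and 0 lower, against 10.4% higher of all tested genes, and these included Aff3 (0.96), Dnmt3a (0.95) and Dnmt3l (0.90). In the inhibitor 3 were higher and 1, Setdb1, was lower (-0.42). Zfp57 and Trim28 did not pass the test between backgrounds, at 0.09 and -0.12 in DMSO (adjusted p = 0.561 and 0.3).

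Beside Dio3, other genes that handle thyroid hormone were followed as a list of 15, of which 12 were tested. In 129, 3 were higher and 2 lower with the inhibitor, and in B6J 2 and 2. Slc16a10, a transporter of thyroid hormone, changed by -2.32 and -2.21. The receptor Thrb rose by 1.74 and 2.96, to 1.56 ± 0.322 and 1.2 ± 0.211 CPM, and the receptor Thra by 0.37 and 0.65. The activating deiodinases Dio1 and Dio2 did not pass the filter, at no more than 0.0506 and 0.11 CPM in any library, so Dio3 was the only deiodinase tested here. The share of the list called was 5 of 12 in 129 and 4 of 12 in B6J, against 35.7% and 31.1% of all tested genes.

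For Dlk1, the Notch pathway was followed as a list of 20 genes, all tested. In 129, 5 rose and 8 fell with the inhibitor, and in B6J 3 rose and 5 fell (medians -0.26 and -0.08), against 35.7% and 31.1% of all tested genes called in either direction, a share near that of the list in B6J. The ligand Dll3 was 4.003-fold and 2.582-fold lower. On the log2 scale the ligand Jag2 fell by 0.76 and 0.96 and the receptor Notch3 by 0.80 and 0.93. The target Hes5 had 5, 2 and 9 counts in 129 with the inhibitor and 6, 4 and 11 in B6J. It passed the filter through the DMSO libraries alone, which fixes the direction. Its changes of -2.95 and -2.10 are therefore a description and support nothing. The ligand Jag1 rose by 0.66 and 1.24 and the receptor Notch1 by 0.49 and 0.61. Dlk2, the closest relative of Dlk1, had no called response (0.12 and -0.67, adjusted p = 0.8 and 0.119). Rbpj, the DNA-binding partner of Notch, was the 1 gene of the list with a called difference of responses (-0.49, adjusted p = 0.0193).

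Imprinted genes of other loci gave a comparison for the parental classes. Of 21 tested paternally expressed genes, 3 rose and 10 fell with the inhibitor in 129 and 2 rose and 11 fell in B6J (medians -0.34 and -0.68, against -0.010 and 0.0023 over all tested genes, of which 35.7% and 31.1% were called). Magel2 changed by -3.43 and -2.56, and Peg10 went from 447 ± 155 to 112 ± 6.56 CPM in 129 and from 441 ± 51.3 to 68.7 ± 6.64 CPM in B6J, the opposite direction to Dio3. Of 25 tested maternally expressed genes, 3 rose and 6 fell in 129 and 1 rose and 5 fell in B6J (medians -0.15 and -0.06), shares near or below those of all tested genes. Among those that fell were the growth regulators Phlda2 (-1.63 and -1.89) and Cdkn1c (-1.02 and -1.21). Between backgrounds in DMSO, 3 of 21 paternal genes were higher and 5 lower in B6J, and 3 of 25 maternal genes were higher and 0 lower. Of all tested genes 10.4% were higher and 10.5% lower, so both counts of higher genes are near that share. The 3 maternal genes were Phlda2, Ascl2 and Grb10. Meg3 and Mirg, both called lower in B6J with DMSO, had no called counterpart among these 25 genes. Zim1 (-2.05, adjusted p = 0.0537) and H19 (-1.73, adjusted p = 0.0594) were lower just over the threshold. Both were highest in replicate 1 of 129 with DMSO. Zim1 was at 19, 2.31 and 2.54 CPM in replicates 1, 2 and 3 of that group, and H19 at 533, 81.1 and 82.1 CPM.

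The genes outside the window whose log2 CPM followed each transcript most closely over the 12 libraries were sought among 12650 genes. Their mean reached 1 CPM, and genes with provisional names (such as Gm, Rik or numbers) were left out. The libraries share 4 groups, so a high Pearson correlation here describes a like order of groups and carries no test. For Dio3 they were Ckb (r = 0.995), Tmem106a (0.992) and Msrb2 (0.990), with Ckb, the brain-type creatine kinase, at a mean of 277 and 723 CPM in 129 and 184 and 540 CPM in B6J without and with the inhibitor. For Dlk1 they were B3gnt7 (0.978), Prr5l (0.969) and Sfrp2 (0.967), and Sfrp2, a secreted modulator of Wnt signals, was at 11.7 and 5.5 CPM in 129 and 11.7 and 3.87 CPM in B6J. For Meg3 they were Sned1 (0.973), Xlr3b (0.964) and Zfp560 (0.951). Sned1, an extracellular matrix protein gene, was at 13.4 and 8.44 CPM in 129 and 3.4 and 6.27 CPM in B6J, the crossed pattern of Meg3. For Mirg they were Hemk1, Wdfy1 and Tagap (each 0.980), and for Rtl1 Pnma5 (0.984), Cd59a (0.984) and Lyplal1 (0.983). Pnma5, like Rtl1 a gene derived from a retrotransposon, was at 37.4 and 48.2 CPM in 129 and 2.06 and 5.11 CPM in B6J. Reads of Xlr3b may be shared with near-identical copies of its family.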

How the data were processed

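RNA from 12 libraries was measured by polyA RNA-seq (TruSeq Stranded mRNA, per the labels' protocols). The deposited values are raw read counts per gene, made by the authors without normalization, per the file headers and values. Per the submitters' processing notes, the tools included HTSeq 0.6.1p1, STAR 2.7.10, DESeq and SAMtools, and GRCm38 and mm10 are listed as builds, with no roles given. Which annotation and strand setting were used is not given in the sources used here. Positions were taken from GENCODE M21 on GRCm38, which holds 26725 of the 26742 gene identifiers, and sequences from RefSeq (GRCm38.p6).

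Genes passing filterByExpr (min.count 10, min.total.count 15) entered edgeR 4.0.16 (R 4.3.3): TMM scaling, 4 group means in 1 quasi-likelihood model (glmQLFit and glmQLFTest), and Benjamini-Hochberg adjustment over all 16627 genes. A gene was called at an adjusted p under 0.05, and an adjusted p with no tool named comes from edgeR. Alternatives were DESeq2 1.42.0, limma-voom (limma 3.58.1), other scaling and filters, halved counts (of values from 1 to 20, 70.1 to 73.4% per library are even), the replicate number as a block, a fibroblast covariate, only the groups compared, and leaving out libraries. The code was tested on simulated data.

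The genes, the lists and the tests were chosen with earlier results of these data known. In 129, all same-numbered libraries correlated in their deviations from the group means (0.44, 0.29 and 0.22). As a hint from the data, the numbers there were read as possible pairs, since no label says what a number marks. The main fit did not pair them, so the 129 results are unpaired except under the replicate block. The hint is weak for replicates 2 and 3. DMSO replicate 2 with inhibitor replicate 3 gave 0.21, and DMSO replicate 3 with inhibitor replicate 2 gave 0.19. In B6J the numbers were not taken as pairs. The rule for names beside the members took in genes within 500 kb, all regulators, and up to 6 genes of each list with the smallest adjusted p in a comparison. It also took in the 3 genes most correlated with each member, among those searched. Not every flanking gene and regulator under it is named, and those left out are given by counts and ranges. Dlk2, Dio1 and Dio2 were named for their kinship to members, after their values were seen. For 1 gene of the thyroid hormone list no values are reported here. The planned exact test of the maternal to paternal ratio is not given, because that ratio is a score over the chosen genes.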

Additional observations from a re-analysis of the deposited data

How the results depend on the processing

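Over 425 pairs of a gene's comparison and an alternative, 374 stayed on their side of the threshold. Of the rest 36 lost a call, 15 gained one and 0 reversed a called direction. Differences not called could change sign, as for Dlk1 between backgrounds in DMSO (-0.34 to 0.28). All 4 differences between backgrounds in DMSO and both Dio3 responses were called in all 16 alternatives. The cause was not tested for any change below. For the 129 response, 3 genes were called, 1 with the fibroblast covariate, and 1 to 3 on leaving out single libraries. For the B6J response, 5 were called, 3 with limma-voom, 3 with only the groups compared, 3 without the most different library of each group (an alternative chosen after seeing the data), and 2 to 4 on leaving out single libraries. For the difference of the responses, 0 were called, 2 with DESeq2, 2 with the covariate, 3 without the most different libraries, and 0 to 2 on leaving out single libraries. The difference between backgrounds in the inhibitor kept 3 to 4 calls on leaving out single libraries.

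The maternal to paternal log2 ratio differed by -1.46 between inhibitor and DMSO, averaged over backgrounds. Taken as Meg3 to Dlk1 alone, it was 1.40, the opposite sign, with Mirg, Rtl1 and Dio3 all left out. Without the most different libraries the values were -1.45 for the inhibitor and -0.83 for B6J minus 129.

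Under the replicate block, 3 genes were called in the B6J response (Rtl1 and Mirg were lost, adjusted p = 0.0845 and 0.0599 by edgeR), 1 in the difference of the responses (Meg3, 1.57, adjusted p = 0.0291) and, in 129, Meg3 in addition (-0.56, adjusted p = 0.0301). The block changed no other call of the 5 genes. In B6J, same-numbered libraries correlated in their deviations from the group means by -0.19, 0.09 and -0.17, so the numbers there are not pairs and a call lost or gained under the block in a comparison with B6J libraries is no measure of the effect.

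Depth limits Rtl1 in B6J (19 to 46 counts per library) and Gm34081 there (0 to 6). The counts do not split reads by allele or by strand.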
